A study of Arabidopsis thaliana with 6 samples.

Results

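Salicylic acid synthesis in Arabidopsis thaliana is described here through 6 genes. ICS1 (AT1G74710, named EDS16 in the reference), EDS5 (AT4G39030), PBS3 (AT5G13320) and EPS1 (AT5G67160) act in the biosynthetic route, and SARD1 (AT1G73805) and CBP60G (AT5G26920) encode transcription factors that switch the route on. They were taken by locus identifier, with earlier results of these data known, and are 6 of the 37051 genes in the deposited count table. Of these, ICS1, EDS5, SARD1 and CBP60G passed the filter on low counts and could be tested, and PBS3 and EPS1 did not.

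Whole shoots of 2-week-old plants were profiled by 3' RNA-seq, a method that counts reads from the 3' end of each transcript, in 3 libraries of the wild type Col-0 and 3 of the mutant los2-5. LOS2 is the gene of the glycolytic enzyme enolase, and los2-5, by its name, is a mutant allele of LOS2 with a lesion that was not given in the sources used here. Both genotypes grew untreated on soil in constant light (100 µmol m-2 s-1) at 22 °C and 60% humidity, after 2 days at 4 °C. Each library was made from a pool of 3 plants, and the replicates of a genotype came from different pots. The series title places the study in plant immunity and the genes of intracellular immune receptors.

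Plants make most of the salicylic acid that accumulates in immunity from chorismate. ICS1 converts chorismate to isochorismate in the plastid, EDS5 exports isochorismate to the cytosol, PBS3 joins it to glutamate, and the product breaks down to salicylic acid, a step that EPS1 speeds up. SARD1 and CBP60g are related DNA-binding proteins of the CBP60 family that bind the ICS1 promoter and act in part redundantly. Calmodulin binds CBP60g and not SARD1.

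Library totals ran from 3563033 to 4598645 counts, with 18997 to 19762 genes detected in each. LOS2 transcript stood at 113 ± 9.15 CPM (library-size-scaled counts, mean ± SD, n = 3) in Col-0 and 119.5 ± 3.80 CPM in los2-5, and a 3' tag does not check a lesion of unknown position. The summed level of 5 leaf markers was 29610 to 30960 CPM in the Col-0 libraries and 17110 to 19070 CPM in those of los2-5, and 4 of the 5 were called lower. Of 5 root markers IRT1 and EXP7 were at 0 in every library, and COBL9 and NRT2.1 had at most 1 count in any library. The root sum, nearly all from PYK10, was 53.4 to 66.7 CPM in Col-0 and 46.9 to 67.9 in los2-5. Floral markers summed to at most 3.54 CPM and seed markers to at most 0.215 CPM. The 3 guard cell markers, mostly GC1 by level, summed to 218 to 346 CPM in Col-0 and 261 to 314 in los2-5. The 2 phloem markers summed to 173 to 191 and 139 to 160 CPM, and SUC2 was called lower. The 4 senescence markers summed to 22.4 to 43.6 CPM in Col-0 and 51.4 to 90.1 in los2-5. Of these, SGR1 was called higher, SAG13 stood at 3.55 ± 4.39 CPM in Col-0 and 31.2 ± 18.0 in los2-5 without passing (edgeR adjusted p = 0.088), ORE1 stood at 7.95 ± 5.28 and 3.89 ± 0.7996 without passing (edgeR adjusted p = 0.068), and SAG12, the defining late marker, was at 0 in all libraries. The part of these marker differences in the results was not tested. In whole shoots, fewer cells of a type and less RNA per cell cannot be told apart.

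ICS1, EDS5, SARD1 and CBP60G were all higher in los2-5, by 3.45- to 4.33-fold, and in each of them the lowest los2-5 library lay above the highest Col-0 library. PBS3 showed the same separation at counts too low for the test, and EPS1 did not separate the genotypes. By edgeR's quasi-likelihood test, 4 of the 4 genes tested were called higher at a Benjamini-Hochberg adjusted p of at most 0.05 and 0 were called lower, which was also so at an unadjusted p of 0.05, by DESeq2 and by limma-voom. Of all 13952 genes tested, 9.92% were called higher (1384) and 10.6% lower (1477). Scaling by library size alone gave 2179 higher and 989 lower, with the same 4 genes called higher. As EDS5 passed the filter only with its los2-5 libraries, the count is a description. Over the 4 genes the median log2 fold change was 1.99, and over all genes tested it was 0.02. All los2-5 libraries lay above all Col-0 libraries in 18.7% of the genes tested and below them in 18.6%.

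**Figure D1:**
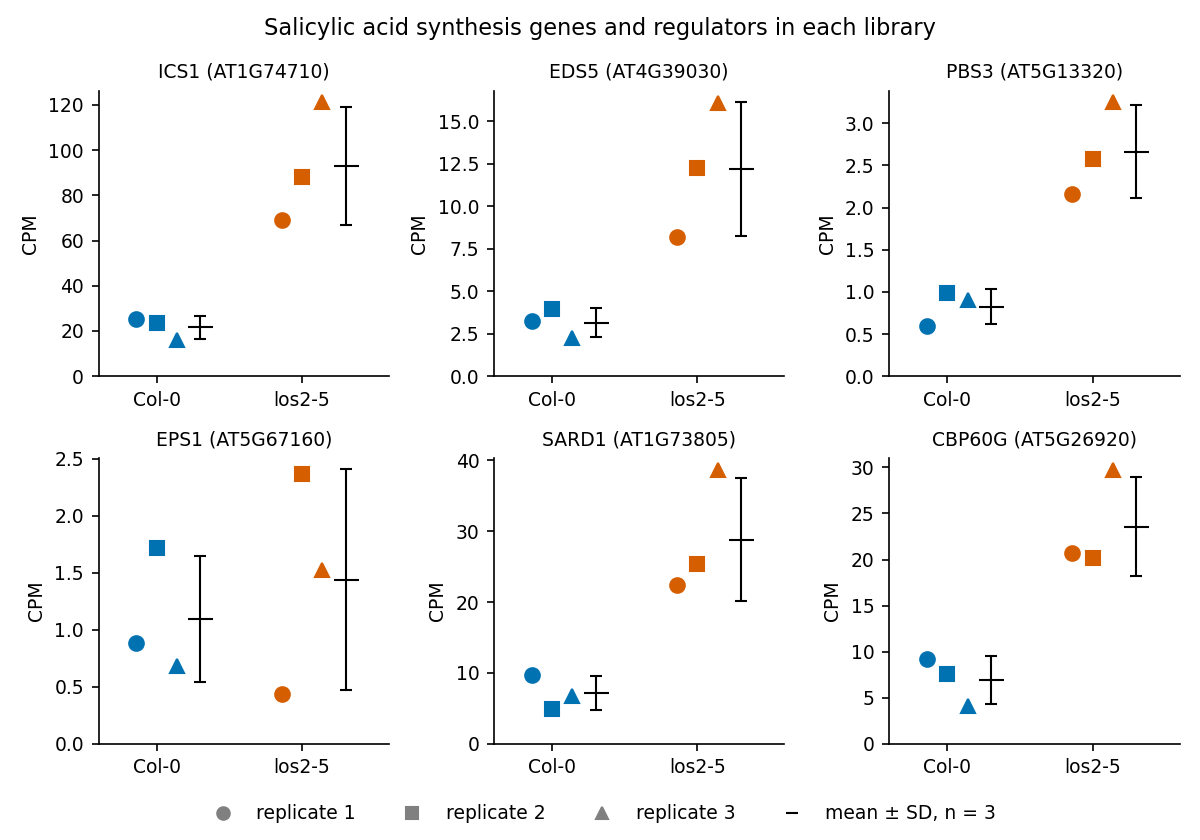
CPM (linear axes from 0, each gene on its own scale) of the 6 genes in the 3 Col-0 and 3 los2-5 libraries, with a point for each library (its shape gives the replicate) and the mean ± SD of each genotype beside the points. The genotypes do not overlap for ICS1, EDS5, PBS3, SARD1 and CBP60G, and they overlap for EPS1.

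ICS1, whose enzyme commits chorismate to this route, was counted 86, 96 and 70 times in Col-0 replicates 1 to 3 and 321, 411 and 558 times in los2-5 replicates 1 to 3. Scaled to library size, these were 25.4, 23.6 and 15.8 CPM in Col-0 and 69.3, 88.3 and 121.1 in los2-5. Every los2-5 library was well above every Col-0 library, and the spread within los2-5 was also wide, with replicate 3 the highest at 1.75 times the lowest. The mean rose from 21.6 ± 5.08 to 92.9 ± 26.2 CPM (SD, n = 3 each), with log2 fold change 2.12 ± 0.21 (SE; 95% interval 1.66 to 2.57; edgeR adjusted p = 7.5e-06). Among the 13952 genes tested, 152 (1.09%) had a larger log2 fold change. ICS1 lies on the plus strand at chr1:28070295-28074177 of TAIR10.1. The 300 bases before its annotated start are shown because both regulators bind the promoter of this gene. Capitals mark GAAATT, the core bound by CBP60g and SARD1, on either strand.
ICS1 upstream, chr1:28069995-28070294, plus strand: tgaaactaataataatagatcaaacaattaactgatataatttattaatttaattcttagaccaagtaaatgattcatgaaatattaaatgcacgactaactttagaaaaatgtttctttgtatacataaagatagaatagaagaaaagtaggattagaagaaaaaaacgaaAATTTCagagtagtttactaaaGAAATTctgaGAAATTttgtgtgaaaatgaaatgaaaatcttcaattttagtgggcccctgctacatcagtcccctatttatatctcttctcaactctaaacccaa
The window held 3 matches, which begin 128, 106 and 96 bases before the start, and none to the other motifs searched. At least 1 GAAATT was present in 37.2% of the 27443 windows of the same length before protein-coding genes.

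EDS5, the exporter of isochorismate from the plastid, had 11, 16 and 10 counts in the Col-0 libraries and 38, 57 and 74 in the los2-5 libraries. The levels were 3.25, 3.93 and 2.26 CPM in Col-0 and 8.20, 12.2 and 16.1 in los2-5. As for ICS1, los2-5 replicate 3 was the highest and replicate 1 the lowest within the mutant, and the genotypes did not overlap. The mean rose from 3.146 ± 0.840 to 12.2 ± 3.93 CPM, with log2 fold change 1.95 ± 0.30 (95% interval 1.33 to 2.57; edgeR adjusted p = 7e-05). EDS5 was near the filter, which kept a gene with 3 of the 6 libraries past a cutoff of 2.26 CPM on library totals without TMM scaling. On that scale 2 of 3 Col-0 libraries and 3 of 3 of los2-5 passed, so EDS5 was kept only with its los2-5 libraries, in which it was high. Its 300 upstream bases are shown with TTGAC, the core of the W-box bound by WRKY factors, in capitals on either strand.
EDS5 upstream, chr4:18185137-18185436, plus strand: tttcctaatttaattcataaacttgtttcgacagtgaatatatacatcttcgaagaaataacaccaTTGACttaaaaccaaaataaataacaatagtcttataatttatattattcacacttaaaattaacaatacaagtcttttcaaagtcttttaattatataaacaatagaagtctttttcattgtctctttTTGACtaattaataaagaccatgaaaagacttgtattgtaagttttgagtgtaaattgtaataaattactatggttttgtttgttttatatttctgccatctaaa
Matches began 234 and 105 bases before the start, and TTGAC was present in 50.4% of all windows.

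PBS3, the amidotransferase that joins glutamate to isochorismate, had 2, 4 and 4 counts in Col-0 and 10, 12 and 15 counts in los2-5. In CPM these were 0.590, 0.983 and 0.904 against 2.16, 2.58 and 3.26. The highest Col-0 library was below the lowest los2-5 library, and 0 Col-0 and 2 los2-5 libraries exceeded the filter's cutoff on the same scale. The summed counts were 10 and 37, a depth-adjusted ratio of 3.164 with an exact 95% interval of 1.54 to 7.13 that covers counting error only. With no filter, PBS3 had a log2 fold change of 1.63 ± 0.52 (edgeR adjusted p = 0.017). In further fits without the filter, added after seeing the data, that call was lost under DESeq2, at an adjusted p of 0.13, and without Col-0 replicate 1, Col-0 replicate 3 or los2-5 replicate 3, at adjusted p of 0.074, 0.06 and 0.086.

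EPS1, an acyltransferase-family enzyme that releases salicylic acid from the glutamate conjugate, had 3, 7 and 3 counts in Col-0 and 2, 11 and 7 counts in los2-5. In CPM these were 0.885, 1.72 and 0.678 against 0.432, 2.36 and 1.52. Both the lowest and the highest library were of los2-5, replicates 1 and 2, so the genotypes overlapped. The summed counts were 13 and 20, a depth-adjusted ratio of 1.32 with an exact 95% interval of 0.623 to 2.88. A difference was not detectable at this depth, and the interval of the ratio runs from below to above equality. With no filter, the log2 fold change was 0.38 ± 0.57 (edgeR adjusted p = 0.71).

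SARD1 had 33, 20 and 30 counts in Col-0 and 104, 118 and 178 counts in los2-5. The levels were 9.74, 4.92 and 6.78 CPM in Col-0 and 22.5, 25.4 and 38.6 in los2-5. Col-0 replicate 2 was the lowest library, unlike for ICS1, EDS5 and CBP60G, where it was Col-0 replicate 3. The mean rose from 7.15 ± 2.43 to 28.8 ± 8.63 CPM, with log2 fold change 2.03 ± 0.25 (95% interval 1.51 to 2.55; edgeR adjusted p = 1.3e-05). CBP60G had 31, 31 and 18 counts in Col-0 and 96, 94 and 137 in los2-5. Its levels were 9.15, 7.62 and 4.07 CPM in Col-0 and 20.7, 20.2 and 29.7 in los2-5. The genotypes were again apart, with the narrowest spread within los2-5 of the 6 genes, 1.47-fold from lowest to highest. The mean rose from 6.95 ± 2.61 to 23.6 ± 5.37 CPM, with log2 fold change 1.79 ± 0.25 (95% interval 1.28 to 2.30; edgeR adjusted p = 2.5e-05).

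The upstream windows of both regulators are shown because they differ in the motifs they hold. Capitals mark GAAATT and TTGAC as above, the core TGACG bound by TGA factors, and the core CGCG bound by CAMTA factors, each on either strand.
SARD1 upstream, chr1:27749249-27749548, minus strand: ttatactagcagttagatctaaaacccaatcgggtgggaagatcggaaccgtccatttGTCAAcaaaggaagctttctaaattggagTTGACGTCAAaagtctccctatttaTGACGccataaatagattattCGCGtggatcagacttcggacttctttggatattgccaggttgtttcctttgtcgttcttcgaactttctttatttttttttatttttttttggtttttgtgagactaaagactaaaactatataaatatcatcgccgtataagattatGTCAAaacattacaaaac
CBP60G upstream, chr5:9475379-9475678, plus strand: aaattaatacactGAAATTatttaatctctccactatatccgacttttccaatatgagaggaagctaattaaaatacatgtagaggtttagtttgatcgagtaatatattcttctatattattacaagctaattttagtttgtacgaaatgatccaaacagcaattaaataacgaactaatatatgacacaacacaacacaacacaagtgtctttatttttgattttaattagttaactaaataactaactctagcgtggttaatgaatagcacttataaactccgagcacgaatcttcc
SARD1 held 4 TTGAC, 3 TGACG and 1 CGCG match and no GAAATT. In its longest run of capitals, 2 TTGAC and 2 TGACG matches overlap. CBP60G held 1 GAAATT, which begins 287 bases before the start, and none of the other 3 motifs. TGACG was present in 21.3% of all windows and CGCG in 11.8%. Across the 6 genes, GAAATT was present in 3 windows (ICS1, EPS1 and CBP60G), TTGAC in 3 (EDS5, EPS1 and SARD1), and TGACG and CGCG in SARD1 alone. The PBS3 window held none of the 4. These matches describe letters in the windows and show no binding.

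**Figure D2:**
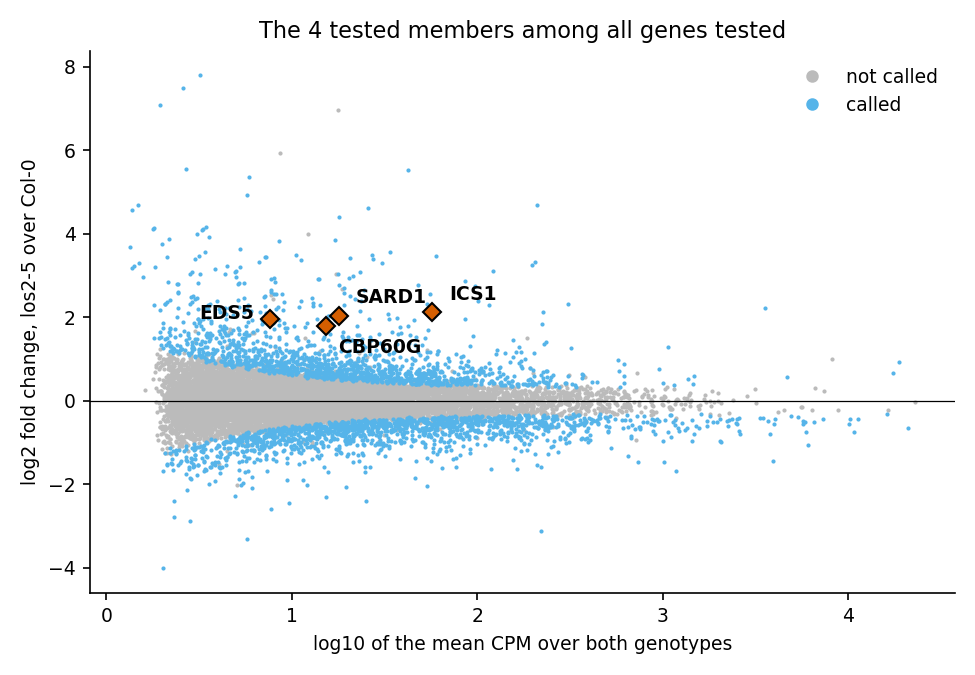
Log2 fold change (los2-5 over Col-0) against the log10 of the mean CPM over both genotypes for the 13952 genes tested, where blue points were called, grey points were not, and diamonds mark the 4 tested genes of the route and its regulators. ICS1, SARD1, EDS5 and CBP60G lie between 1.79 and 2.12, where 152 to 201 genes have larger values.

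The 4 called genes shared the step between genotypes and differed in part within Col-0, where SARD1 was lowest in replicate 2 and the other 3 in replicate 3. Centred on each gene's own mean over the 6 libraries, the average log2 level of the 4 was -0.63, -0.89 and -1.31 in Col-0 replicates 1 to 3 and 0.61, 0.87 and 1.36 in los2-5 replicates 1 to 3. The root-mean-square distance from this average was 0.11 for ICS1, 0.18 for EDS5, 0.18 for CBP60G and 0.26 for SARD1. Among 10739 other genes averaging 5 CPM or more, 10 lay within a distance of 0.2. PAD4, a lipase-like partner of EDS1 in immune signalling, was the nearest at 0.05. The next were AT5G25260 at 0.16, Hsp70-2 (AT5G02490) at 0.16, CYP71B23 (AT3G26210) at 0.17, AT1G24145 at 0.17, DUR3 (AT5G45380) at 0.18, AT1G35710 at 0.18 and AGP5 (AT1G35230) at 0.18. Likeness was taken over all 6 libraries, so it includes the difference between genotypes for which the 4 were called, and each of the 4 helps set the average.

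**Figure D3:**
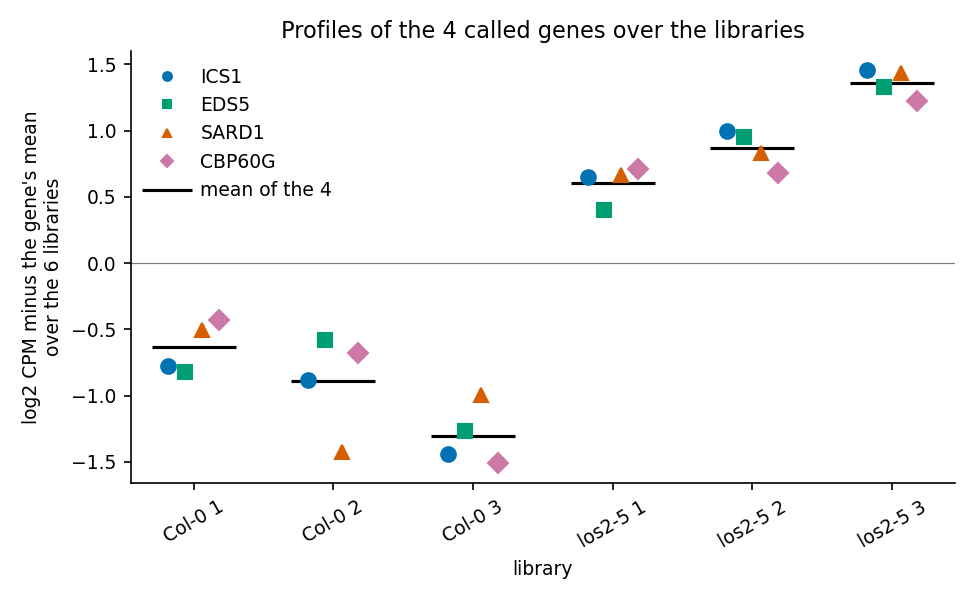
Log2 CPM of ICS1, EDS5, SARD1 and CBP60G minus each gene's mean over the 6 libraries, by library, with a black bar at the mean of the 4. All 4 genes lie below 0 in the Col-0 libraries and above 0 in the los2-5 libraries.

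Whether the genes changed by unequal folds was asked with the difference in log2 CPM between a pair of genes within each library, for 7 pairs, by two-sided exact permutation tests over the 6 libraries, where the smallest p possible was 0.1. SARD1 minus CBP60G was 0.06 ± 0.63 in Col-0 and 0.27 ± 0.14 in los2-5 (exact p = 0.7, adjusted 0.8). ICS1 minus SARD1 was 1.56 ± 0.53 and 1.68 ± 0.09 (exact p = 0.8, adjusted 0.8). The changes in these pairs, 0.21 and 0.12, were smaller than the SD among the Col-0 libraries and larger than that among the los2-5 libraries. ICS1 minus EDS5 was 2.61 ± 0.18 and 2.90 ± 0.10, ICS1 minus PBS3 was 4.08 ± 0.52 and 4.88 ± 0.15, and both had an exact p of 0.1, adjusted 0.175. With a prior count of 0.5 in place of 2, the changes in these differences were 0.20 and 0.52, at exact p of 0.3 and 0.4. PBS3 minus EPS1 went from -0.23 ± 0.44 to 0.85 ± 0.72 (exact p = 0.2, adjusted 0.28).

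Among relatives of the 6 genes, CBP60B and CBP60D were called higher, and ICS2 and EDS5H were not called. Of 14 listed, 8 were tested, 2 were called higher and 0 lower, beside 9.92% and 10.6% of all genes tested, and the list's median was 0.14 on the log2 scale. At an unadjusted p of 0.05, 2 were higher and 2 lower, and the counts were 1 and 0 with DESeq2 and 2 and 0 with limma-voom. ICS2, the second isochorismate synthase, stood at 4.00 ± 0.494 CPM in Col-0 and 2.38 ± 0.761 in los2-5. Its log2 fold change was -0.76 ± 0.35 (95% interval -1.47 to -0.04; edgeR adjusted p = 0.13). ICS2 had 3 Col-0 libraries and 1 los2-5 library past the filter's cutoff, so it was kept only with Col-0, where it was high. ICS1 minus ICS2 was 2.28 ± 0.51 in Col-0 and 5.03 ± 0.18 in los2-5, with no overlap of the libraries, at the smallest exact p possible, 0.1 (adjusted 0.175). EDS5H, the closest relative of EDS5, had a log2 fold change of -0.44 ± 0.21 (edgeR adjusted p = 0.13). AT5G67150, which encodes an acyltransferase of EPS1's family next to it, was at 0.01 ± 0.18. In the GH3 family of PBS3, GH3.7, GH3.13 and GH3.16 had 0 counts in all libraries, and GH3.15 had a log2 fold change of 0.01 ± 0.35. In the CBP60 family, CBP60B rose by 0.40 ± 0.13 (edgeR adjusted p = 0.028) and CBP60D by 1.25 ± 0.41 (edgeR adjusted p = 0.033). Neither call held throughout, and CBP60D, with 0 Col-0 libraries past the filter's cutoff, was kept only through los2-5, where it was high. CBP60B was lost when any Col-0 library or los2-5 replicate 2 was left out (edgeR adjusted p up to 0.16), and CBP60D under DESeq2 and when any library but los2-5 replicate 1 was left out (adjusted p up to 0.15). CBP60A, a negative regulator of immunity, and CBP60C did not pass, at 0.57 ± 0.28 and 0.26 ± 0.15.

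Genes known as activators of the route were mostly higher. Of 15 listed, 14 were tested, 9 were called higher and 0 lower, beside 9.92% and 10.6% of all genes tested. The median log2 fold change was 0.68, and the DESeq2 counts were 7 and 0. At an unadjusted p of 0.05, 9 were higher and 0 lower, and limma-voom gave the same counts. The 9 included the WRKY factor WRKY46 and genes of the EDS1 module that works upstream of ICS1. WRKY46 rose from 4.72, 5.90 and 4.07 CPM in Col-0 to 30.01, 51.1 and 43.9 CPM in los2-5. The log2 fold change was 3.08 ± 0.23 (edgeR adjusted p = 6.9e-09). Its change was the greatest among the activators tested. PAD4 rose by 1.97 ± 0.18 (5.1e-07), EDS1 by 1.57 ± 0.20 (6.3e-06) and their partner SAG101 by 1.05 ± 0.29 (0.012) in log2 fold change (edgeR adjusted p). The helper receptors ADR1 and ADR1-L1 rose by 1.78 ± 0.23 (7.8e-06) and 0.82 ± 0.15 (3.6e-04), while ADR1-L2 did not pass, at 0.33 ± 0.22 (edgeR adjusted p = 0.31). TGA1, which is needed for full SARD1 and CBP60G expression, rose by 0.77 ± 0.24 (edgeR adjusted p = 0.028), and its relative TGA4 was at -0.15 ± 0.26 without passing. GBPL3 (0.58 ± 0.17) and NTL9 (0.52 ± 0.17) were also called. Leaving out los2-5 replicate 2 removed the calls of TGA1, NTL9, GBPL3 and SAG101, so that 5 activators were then called. Over all alternatives, the edgeR, DESeq2 or limma-voom adjusted p reached 0.12 for TGA1, 0.15 for NTL9, 0.13 for GBPL3 and 0.085 for SAG101. The calls of TGA1 and NTL9 were also lost under DESeq2, when any single Col-0 library was left out, and without los2-5 replicate 1 (TGA1) or 3 (NTL9). That of GBPL3 was also lost without Col-0 replicate 1 or 3, and that of SAG101 without Col-0 replicate 2. CHE, TCP8 and TCP9, which bind the ICS1 promoter, did not pass, and WRKY28 had 1 count in all.

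Genes known as repressors of the route were also higher or did not pass. Of 14 listed, 11 were tested, 6 were called higher and 0 lower, beside 9.92% and 10.6% of all genes tested. The median log2 fold change was 0.77, and DESeq2 and limma-voom each called 5 higher and 0 lower. At an unadjusted p of 0.05, 6 were higher and 1 lower. Of the 6, WRKY18 and WRKY40 had 1 and 0 Col-0 libraries past the filter's cutoff and were kept only with los2-5, where they were high, and the other 4 were not. WRKY18 rose by 2.21 ± 0.31 (2.4e-05), WRKY40 by 1.85 ± 0.47 (0.01), WRKY54 by 0.85 ± 0.22 (0.0085) and WRKY70 by 0.80 ± 0.14 (2.5e-04) in log2 fold change (edgeR adjusted p). NPR3, a salicylic acid receptor that represses SARD1, rose by 1.42 ± 0.30 (edgeR adjusted p = 0.0017). CAMTA3, a calmodulin-binding repressor of SARD1 and CBP60G, rose by 0.77 ± 0.26 (edgeR adjusted p = 0.041). Calls were lost for WRKY40 without los2-5 replicate 3 (edgeR adjusted p = 0.069) and for WRKY54 without Col-0 replicate 2 or 3 (up to 0.07). CAMTA3 was lost under DESeq2 and limma-voom and when any Col-0 library or los2-5 replicate 3 was left out (up to 0.24). CAMTA1, CAMTA2, EIN3 and EIL1 did not pass, and NAC072 was at -0.45 ± 0.21 (edgeR adjusted p = 0.14).

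Among 5 genes of the other route and 7 around chorismate, 0 were called higher. With 9.92% of all genes tested called higher, lists this short are not set apart by that count. Salicylic acid can also be made from phenylalanine, by a route that starts with the PAL enzymes. Of its 5 listed genes 0 were called in either direction, with 0 at an unadjusted p of 0.05 and 0 by DESeq2 or limma-voom, and the median log2 fold change was 0.03. PAL1 was at 0.34 ± 0.21 (95% interval -0.11 to 0.78) and PAL2 at 0.20 ± 0.16 (95% interval -0.13 to 0.52), so that the upper bounds are below the lower bound for ICS1. ICS1 minus PAL1 moved from -0.99 ± 0.27 in Col-0 to 0.75 ± 0.71 in los2-5, at the smallest exact p possible, 0.1 (adjusted 0.175). Without Col-0 replicate 2, PAL2 was called higher, at 0.45 ± 0.14 (edgeR adjusted p = 0.035). Among 7 genes that make chorismate or draw on it, 0 were called higher and 1 lower, beside 9.92% and 10.6% of all genes tested. The list's median was 0.04. The counts at an unadjusted p of 0.05 and by limma-voom were also 0 and 1, and DESeq2 called 0 in either direction. EMB1144, the chorismate synthase, was at -0.22 ± 0.17, CM1 at 0.04 ± 0.18 and ASA1 at 0.06 ± 0.19. ADCS, which takes chorismate to folate synthesis, fell by 1.10 ± 0.37 (log2; edgeR adjusted p = 0.04), and was kept by the filter only with its Col-0 libraries, in which it was high. Its libraries overlapped between genotypes, with Col-0 replicate 1 at 2.95 CPM and los2-5 replicate 1 at 3.02. ADCS was not called by DESeq2 or under scaling by library size alone. Nor was it called without Col-0 replicate 2 or 3 or los2-5 replicate 2 or 3 (edgeR adjusted p up to 0.16).

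Genes that act on salicylic acid itself were mixed. The list's median was 1.28 on the log2 scale. Of 9 listed, 4 were tested, 2 were called higher and 0 lower, beside 9.92% and 10.6% of all genes tested. DESeq2 and limma-voom gave the same counts, and at an unadjusted p of 0.05, 2 were higher and 1 lower. DLO1 had 0 Col-0 libraries past the filter's cutoff and was kept only through los2-5, where it was high. DMR6, which hydroxylates salicylic acid, rose from 16.3 ± 4.71 to 95.03 ± 12.6 CPM, or 2.56 ± 0.18 in log2 fold change (edgeR adjusted p = 2.8e-09). Its relative DLO1 rose by 2.21 ± 0.40 (edgeR adjusted p = 4.9e-04). UGT74F2, a glucosyltransferase, was at 0.35 ± 0.32 and SOT12, a sulfotransferase, at -0.51 ± 0.22, and neither passed. In the route to N-hydroxypipecolic acid, whose genes SARD1 and CBP60g also bind, 2 of 3 listed genes were tested and both were called higher. ALD1 rose by 1.91 ± 0.45 (edgeR adjusted p = 0.0042) and SARD4 by 1.06 ± 0.18 (edgeR adjusted p = 1.9e-04). ALD1 had 0 Col-0 libraries past the filter's cutoff and was kept only through los2-5, where it was high. FMO1 was below the filter, with 2, 1 and 2 counts in Col-0 and 14, 8 and 13 in los2-5. Over all of these lists, 51 of 67 genes were tested, 21 were called higher and 1 lower, beside 9.92% and 10.6% of all genes tested. Of the 21, CBP60D, WRKY18, WRKY40, DLO1 and ALD1 were kept only with los2-5. As the lists were also chosen with earlier results of these data known, the count is a description.

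**Figure D4:**
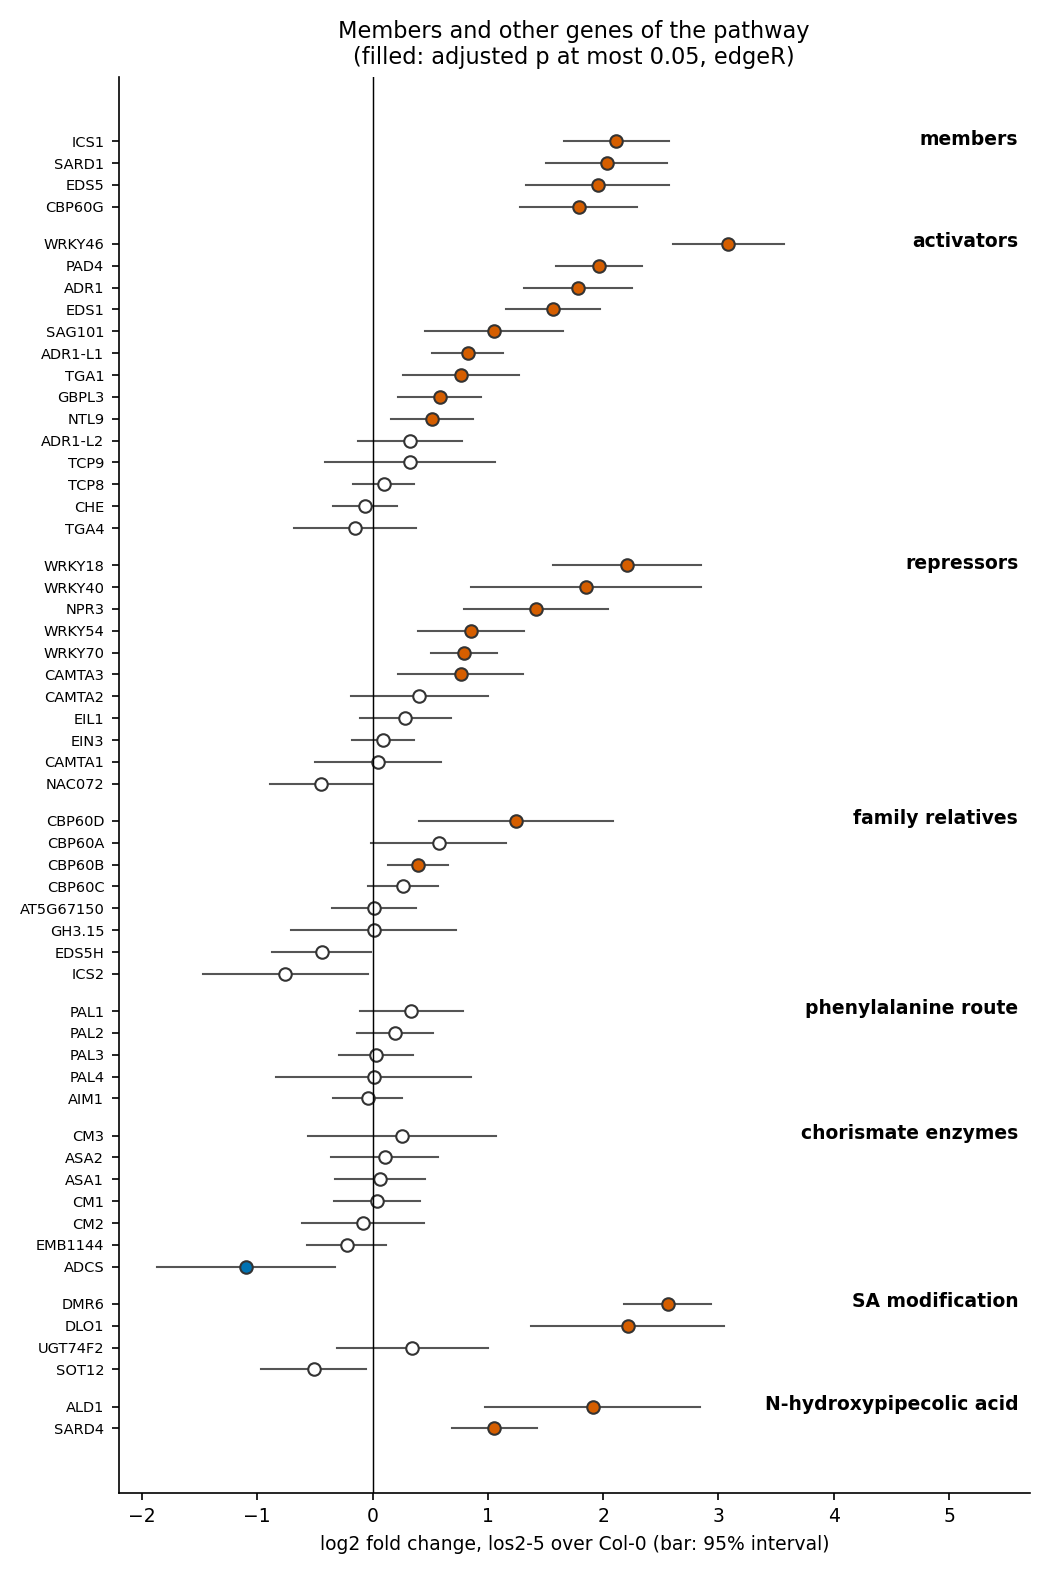
Log2 fold change (los2-5 over Col-0) with its 95% interval for the 4 tested genes and for the genes tested in each list of the pathway, where filled points passed the edgeR test. The activators and repressors hold calls in the higher direction and 0 in the lower, and the phenylalanine route holds 0 calls among 5 genes. With 9.92% of all genes tested called higher and 10.6% lower, 0 calls among 5 genes do not set that route apart.

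Of 14 genes beside or overlapping the 6 on the chromosomes, 9 were tested, 0 were called higher and 1 lower, near the shares of all genes tested (9.92% and 10.6%). ICS1 lies between TRZ1 (log2 fold change 0.46 ± 0.40) and QKY (-0.02 ± 0.26), neither called. On the 3' side of EDS5, AT4G39050 fell by 0.53 ± 0.19 (edgeR adjusted p = 0.048), and AT4G39040, which overlaps EDS5 by 213 bases on the opposite strand, was at -0.25 ± 0.16 without passing. CBP60G's neighbour TRM8 was at -0.68 ± 0.40 without passing, and GATA23 had 0 counts. AT5G13310, beside PBS3, was at -0.07 ± 0.29. SARD1's 3' end overlaps GIP2 (AT1G73790) by 640 bases on the opposite strand. GIP2 stood at 7.38, 7.37 and 7.69 CPM in Col-0 and 8.64, 13.1 and 13.2 in los2-5, with no overlap between genotypes, a log2 fold change of 0.64 ± 0.23 that just missed the threshold (edgeR adjusted p = 0.051). Whether the counting used strand was not given in the sources used here, so reads of SARD1 and GIP2 in their shared stretch, and of EDS5 and AT4G39040 in theirs, cannot be told apart. AT4G39040 was measured at 29.5 to 47.5 CPM over the 6 libraries. AT1G73810, on SARD1's other side, was at 0.91 ± 0.44 (edgeR adjusted p = 0.15).

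**Figure D5:**
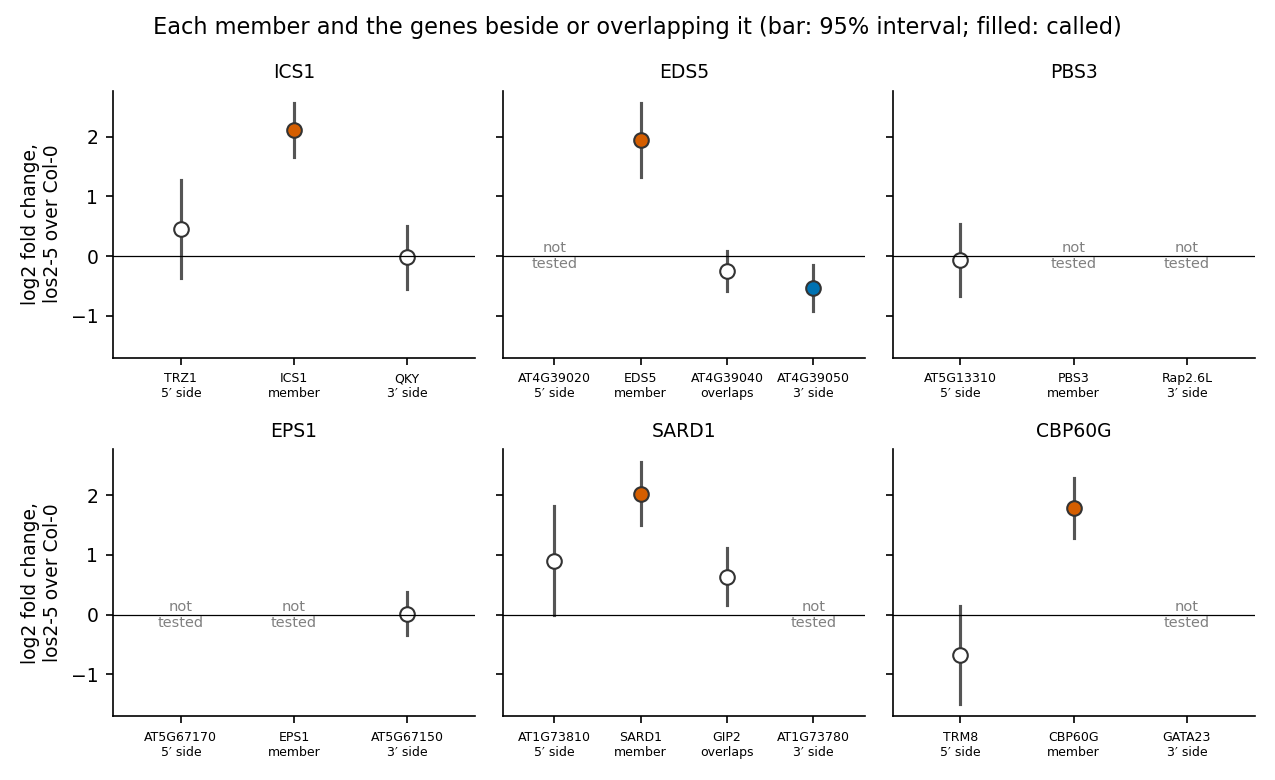
Log2 fold change (los2-5 over Col-0) with its 95% interval for each of the 6 genes and the annotated genes on either side or overlapping it, where filled points passed the edgeR test. ICS1, EDS5, SARD1 and CBP60G stand above their tested neighbours, and AT4G39050 is the neighbour called lower.

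Reads from related genes could blur these counts if the 3' ends were alike. The last 500 transcript bases of each gene were compared with the genome, and 0 of the 6 had another match of at least 50 bases at 95% identity. ICS1's best match was 97 bases at 82.5% identity in ICS2, and PBS3's was 333 bases at 78.1% in GH3.7, which had 0 counts in all libraries. The longest match of EPS1 was 343 bases at 66.5% in AT3G50300, and that of SARD1 was 178 bases at 82.0% in AT4G09550. EDS5 and CBP60G had no other match.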

How the data were processed

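Per the labels, 3' RNA-seq libraries were made from TRIzol-extracted shoot RNA, and the authors deposited raw read counts per gene. STAR, edgeR and the build TAIR10 appear, without versions, in the submitters' processing notes. Counting tool, annotation and strandedness were not given in the sources used here. All 37051 identifiers matched locus tags of the RefSeq TAIR10.1 annotation, from whose genome gene positions and upstream sequences were read. The counts carry no coordinates, and 0 columns were unmapped.

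Genes were kept by filterByExpr (minimum count 10, total 15, here 3 libraries past 2.26 CPM on unscaled totals), leaving 13952 genes with 99.5% of the counts. After TMM scaling, genotype was tested as the only term by the quasi-likelihood test of edgeR 4.0.16 (R 4.3.3), with Benjamini-Hochberg adjustment across the genes kept and a threshold of 0.05. The common dispersion was 0.0155. The SE of a log2 fold change is its absolute value divided by the square root of F. CPM use TMM-scaled library sizes, and log2 CPM for pairs and profiles have a prior count of 2. Exact intervals and the ratios of low counts cover counting error only. Alternatives used RLE or no scaling factors, other filters, DESeq2 1.42.0, limma 3.58.1 (voom), a replicate block and leaving out each library. Last transcript bases were searched with blastn 2.17.0.

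The 6 genes and all lists were chosen with earlier results of these data known. Named were the 6 genes, up to 6 genes of each list by p and those needed to say which did not pass, adjacent genes, the 8 genes of most similar profile (mean of at least 5 CPM), and LOS2. Overlapping genes, PAL2 without Col-0 replicate 2 and closest 3' matches were named after their values were seen.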

Additional observations from a re-analysis of the deposited data

How the results depend on the processing

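ICS1, EDS5, SARD1 and CBP60G kept their direction and their call in each of the 13 alternatives, with log2 fold changes of 1.88 to 2.29, 1.70 to 2.17, 1.76 to 2.28 and 1.48 to 2.01. Scaling by library size alone, which moved the median of all genes by 0.12 (log2), gave 2179 genes higher and 989 lower, a chorismate count of 0 lower and a median of 0.26 for the relatives. With a mean of at least 5 CPM required, CBP60D, DLO1, ALD1 and ADCS were removed before testing. Called higher were 1 relative, 1 salicylic acid modifying gene and 1 gene of the N-hydroxypipecolic acid route, and 0 chorismate genes were lower. Over the genes that remained, the medians of the first 3 lists were 0.27, 1.03 and 1.06. DESeq2 called 1 relative higher and 0 chorismate genes lower, and gave PBS3 1.66 with the call lost. With no filter, 1 modifying gene, BSMT1, was called lower. It had 1, 0 and 10 counts in Col-0 replicates 1 to 3 and 0 in each los2-5 library, so the genotypes overlapped. Leaving out each library in turn gave 831 to 1537 genes higher and 927 to 1606 lower, the lowest without Col-0 replicate 3. The same step gave 0 to 2 relatives, 5 to 8 activators and 0 to 1 gene of the phenylalanine route higher, and 0 to 1 chorismate gene lower. List medians ran from 0.48 to 0.86 for repressors, 1.03 to 1.48 for modifying genes and 1.19 to 1.62 for the N-hydroxypipecolic acid route. PBS3 ran from 1.46 to 1.77 (1.69 without Col-0 replicate 3), and EPS1 from -0.16, without los2-5 replicate 2, to 0.88. The change in SARD1 minus CBP60G ran from -0.11, without Col-0 replicate 2, to 0.52, and that in ICS1 minus SARD1 from -0.076, without Col-0 replicate 3, to 0.42. Beyond the genes removed at 5 CPM, the cause of these shifts was not tested. Same-numbered replicates showed no shared deviation (correlations of 0.05, -0.00 and -0.05), so the numbers were not taken as pairs. A replicate block gave 1517 genes higher and 1598 lower and an ICS1 value of 2.09, and it changed no call of the 6 genes. Depth limits PBS3 and EPS1, at 2 to 15 counts per library.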
